A study of Mus musculus with 4 samples.

Results

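The proteasome genes described here were all genes whose symbol in the platform's probe table starts with Psma, Psmb, Psmc, Psmd, Psme, Psmf or Psmg. They numbered 40 of 9880 genes on the array, each read by 1 probe. Of these, 5 are the interferon-induced members Psmb8, Psmb9, Psmb10, Psme1 and Psme2, and 33 are the standard subunits, activator and assembly chaperones. The remaining 2, Psmc3ip (a DNA recombination factor) and Psme3ip1 (a protein that binds the activator subunit Psme3), share only the prefix and are no proteasome subunits. Of the 40 genes, 38 gave a usable spot on all 4 arrays. The label fits the probes as far as their symbols go, and no member starts with Psmf.

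The proteasome is the cell's main ATP-driven protease for proteins tagged with ubiquitin. Its core is a barrel of alpha rings, which gate the entrance, and beta rings, which hold the cutting sites, and a regulatory particle of ATPases and other subunits caps the barrel, recognises the ubiquitin tag and unfolds the substrate. Interferon replaces the catalytic subunits Psmb5, Psmb6 and Psmb7 with Psmb8, Psmb9 and Psmb10, which gives the immunoproteasome, and also induces the cap formed by Psme1 and Psme2. That form is abundant in leukocytes and supplies peptides to MHC class I molecules, and parenchymal cells such as kidney tubule cells make it when exposed to interferon.

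RNA of the renal cortex was hybridised to CodeLink bioarrays, which carry 1 dye, and every mouse was a male C57BL/6J. Diabetic mice with intact ICAM-1 (DM-WT, genotype ICAM-1+/+) had received streptozotocin, a toxin of pancreatic beta cells, at 200 mg/kg at 8 weeks of age, and nondiabetic mice of that genotype (ND-WT) had received citrate buffer. Diabetic and nondiabetic mice lacking ICAM-1 (DM-KO and ND-KO, genotype ICAM-1-/-), an adhesion molecule through which leukocytes enter tissue, were treated likewise. Diabetic mice entered the study only with a blood glucose above 16 mmol/L at 7 days, and kidneys were taken 12 weeks after injection, at 20 weeks of age. The deletion is carried by every cell of the ICAM-1-/- mice, and all groups share the C57BL/6J background. Each group was stated to hold 5 mice and has 1 array, made from pooled or single kidneys, which the labels leave unsaid. No replicate therefore backs a difference between 2 arrays, and only its size is given. Tests came from additive limma fits over all 4 arrays, where the error of a gene is how far its 4 values depart from the sum of a diabetes and a genotype effect, so p-values measure only that spread.

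The share of gene probes that could be used ran from 62.8% to 66.2% over the arrays. Among repeat spots of the same bacterial control probe, the log2 difference between 2 arrays had a median standard deviation of 0.059 to 0.076, depending on the pair, which covers spot-to-spot error only. On DM-WT a strip of the slide was dim. In the last column of the upper block, column 48, bright probes stood at a median log2 difference of -1.28 from the other arrays, against -0.06 in column 47 and 0.02 in column 44. Psmd8 was printed in column 48, Psmd7 in column 47, Psma7 in column 45 and Psmg1 in column 44, and these 4 are named below as edge members. Icam1 itself was not analysed here, and the genotypes rest on the labels alone. Proximal tubule markers were usable on all arrays in 18 of 18 cases, whereas 0 of 4 podocyte markers were.

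Levels are normalized log2 intensities, in which a step of 1 is a doubling, and differences are between such values. All 5 interferon-induced members stood higher on DM-WT, set against ND-WT, with a median log2 difference of 0.33 against 0.00 for all 6049 genes usable on both arrays, and 50.1% of those genes lay above 0. In cortex RNA, more cells of a type and more RNA per cell cannot be told apart. On DM-KO against ND-KO their median was 0.08, and 4 of 5 were above 0 (3 of 5 in the authors' scaled value table, where Psme1 turned to -0.03), against 47.8% of 6335 genes. The standard members had medians of -0.09 in WT and -0.01 in KO. Psmb8 was the only one of 38 usable members at least 1.5-fold higher on DM-WT, where 1.74% of all genes were, and 0 members were at least 1.5-fold lower, against 0.876% of all genes. Psmb10 passed that fold as well in the value table and with a normexp offset of 16, and Psmd8 was at least 1.5-fold lower in the value table and under median scaling. In KO, 0 of 39 usable members differed by 1.5-fold with diabetes, against 0.537% of all genes higher and 0.505% lower.

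Psmb8 encodes the subunit that takes the place of Psmb5 in the immunoproteasome. Its level was 8.11 on DM-WT and 7.35 on ND-WT, and 7.77 on DM-KO and 7.56 on ND-KO. DM-WT held the highest of the 4 values and ND-WT the lowest. The fold of DM-WT over ND-WT was 1.69, and that of DM-KO over ND-KO was 1.15. In the limma fit with genotype as a covariate the diabetes effect was 0.48 (SE 0.147, unadjusted p = 0.0291), and it did not pass after Benjamini-Hochberg adjustment over 6506 genes (adjusted p = 0.335). Its probe lay in column 43 of the upper block, where bright probes stood at a median of -0.03 on DM-WT from the other arrays.

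Psmb10, the counterpart of Psmb7, had levels of 7.53 on DM-WT and 7.05 on ND-WT, and of 7.48 on DM-KO and 7.40 on ND-KO. ND-WT stood apart below the other arrays, and both KO arrays lay close to DM-WT. The diabetes effect was 0.28 (SE 0.114, limma adjusted p = 0.432). Psmb9, the counterpart of Psmb6, was the dimmest of the group, with background-subtracted intensities of 55.6 on DM-WT, 47.0 on ND-WT, 47.7 on DM-KO and 47.3 on ND-KO. Its level was 6.83 on DM-WT and 6.58 on ND-WT, and 6.55 on DM-KO and 6.57 on ND-KO, so that DM-WT alone was high. The limma effect of diabetes was 0.11 for Psmb9 (SE 0.0893, adjusted p = 0.67).

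Psme1 and Psme2 encode the alpha and beta subunits of the interferon-induced cap. Psme1 stood at 9.51 on DM-WT and 9.21 on ND-WT, and at 9.30 on DM-KO and 9.23 on ND-KO. Psme2 stood at 8.61 on DM-WT and 8.29 on ND-WT, and at 8.47 on DM-KO and 8.37 on ND-KO. In both genes DM-WT was highest, DM-KO next, and ND-WT lowest. Before normalization Psme1 had nearly the same background-subtracted intensity on DM-WT, at 568.5, as on ND-WT, at 576.4, so its difference rests on the scaling of the dimmer DM-WT array, and it was 0.08 with arrays scaled by their medians. Psme2 had 291.4 on DM-WT and 276.3 on ND-WT. Its difference was 0.16 with arrays scaled by their medians, against 0.33 as reported, so it rests in part on the scaling too. Limma gave 0.18 for Psme1 (SE 0.0826, adjusted p = 0.461) and 0.21 for Psme2 (SE 0.0824, adjusted p = 0.412). The RefSeq table also holds Psme2b, a gene like Psme2, and whether the Psme2 probe reads it too was not tested.

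**Figure D1:**
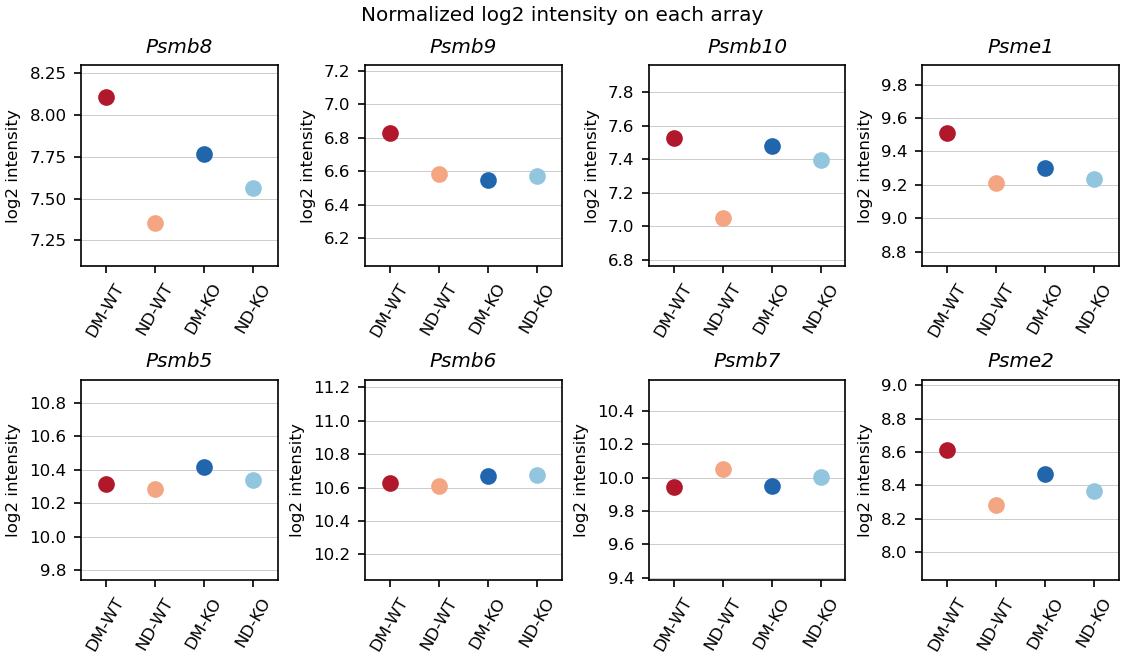
Normalized log2 intensity of the 5 interferon-induced members and of the standard catalytic subunits Psmb5, Psmb6 and Psmb7. Each point is the single array of the group named on the horizontal axis and all vertical axes span the same range. The interferon-induced genes are highest on DM-WT, while the 3 standard subunits stay within about 0.13 across the arrays.

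Each immunoproteasome catalytic subunit was also set against the standard subunit it replaces. Psmb5, which carries the chymotrypsin-like activity, had levels of 10.32 on DM-WT and 10.29 on ND-WT, and of 10.42 on DM-KO and 10.34 on ND-KO. Psmb6 had 10.63 on DM-WT and 10.61 on ND-WT, and 10.67 on DM-KO and 10.68 on ND-KO. Psmb7 had 9.94 on DM-WT and 10.05 on ND-WT, and 9.95 on DM-KO and 10.00 on ND-KO. The 3 standard subunits differed by at most 0.13 between arrays, although under median scaling the WT differences were -0.34 for Psmb7, -0.25 for Psmb6 and -0.19 for Psmb5. The log2 difference of Psmb8 between DM-WT and ND-WT exceeded that of Psmb5 by 0.72, that of Psmb10 exceeded that of Psmb7 by 0.59, and that of Psmb9 exceeded that of Psmb6 by 0.23. In KO the same quantities were 0.13 for Psmb8, 0.14 for Psmb10 and -0.01 for Psmb9. Over the alternatives tried for the values, the WT quantity ranged from 0.72 to 1.005 for Psmb8, from 0.58 to 0.90 for Psmb10 and from 0.23 to 0.60 for Psmb9. In KO that of Psmb9 turned to 0.08 under median scaling and 0.09 in the value table.

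In the RefSeq table Psmb8 and Psmb9 lie beside each other in the MHC region of chromosome 17 with the peptide transporter gene Tap1 between them and Tap2 next to Psmb8, and Psme1 and Psme2 lie close together on chromosome 14 with Emc9 between them. Promoter windows of 300 bases, 250 before and 50 after the start of the gene, are shown for Psmb8 and Psme1, because they hold the matches found among the interferon-induced members, and for Psmb9, the neighbour of Psmb8 with none. Sequences are from RefSeq, build GRCm38.p6. The Psmb8 window is chr17:34197945-34198244 on the plus strand, the Psmb9 window chr17:34187281-34187580 on the minus strand and the Psme1 window chr14:55578244-55578543 on the plus strand. All are written 5′ to 3′ in the gene's direction, with motif matches in capitals.
Psmb8 promoter: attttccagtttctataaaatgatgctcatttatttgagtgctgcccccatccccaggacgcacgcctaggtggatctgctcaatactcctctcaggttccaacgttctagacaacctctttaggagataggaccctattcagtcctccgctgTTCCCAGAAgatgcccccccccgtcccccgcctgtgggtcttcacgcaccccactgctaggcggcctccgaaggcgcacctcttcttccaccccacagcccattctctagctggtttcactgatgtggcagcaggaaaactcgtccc
Psmb9 promoter: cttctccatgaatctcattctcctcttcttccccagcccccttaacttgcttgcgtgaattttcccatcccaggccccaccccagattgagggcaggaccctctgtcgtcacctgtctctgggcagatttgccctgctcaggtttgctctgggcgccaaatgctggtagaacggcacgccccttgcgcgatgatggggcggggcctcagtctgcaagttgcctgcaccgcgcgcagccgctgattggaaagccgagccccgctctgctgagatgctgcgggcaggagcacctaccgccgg
Psme1 promoter: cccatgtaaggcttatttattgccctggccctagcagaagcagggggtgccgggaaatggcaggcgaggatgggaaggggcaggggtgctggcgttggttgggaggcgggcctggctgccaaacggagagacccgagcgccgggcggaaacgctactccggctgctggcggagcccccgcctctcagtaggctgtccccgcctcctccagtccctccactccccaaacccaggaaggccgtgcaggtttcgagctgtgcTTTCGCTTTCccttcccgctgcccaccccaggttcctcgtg
The motifs searched on both strands were the interferon-stimulated response element, written as GAAA, any 2 bases and GAAA again, and the gamma-activated site, written TTCNNNGAA, and they did not overlap in these windows. Psmb8 held a gamma-activated site starting 97 bases before the start of the gene, and Psme1 a response element, read on the opposite strand, starting at base 10 after it. Of all 32851 promoter windows, 3.44% held the first motif and 8.3% the second. Among the interferon-induced members 1 of 5 held each, and among the 28 standard members with a window 3 held the first (Psmb3, Psmd4 and Psmd9) and 2 the second (Psmd2 and Psmg1).

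How close the 33 standard members lay to 0 depended on the scaling in WT. Their log2 differences between DM-WT and ND-WT ran from -0.51 to 0.30, and 29 of 33 lay within 0.2 of 0, or 87.9%, against 71.7% of the 2676 other genes in the same range of brightness. The count was 9 of 33 under median scaling (27.3%, against 53.6% of like genes) and 15 of 33 in the value table (45.5%, against 58.5%). Between DM-KO and ND-KO they ran from -0.19 to 0.21, and 32 of 33 lay within 0.2, or 97%, against 80.1% of 2689. With diabetes in WT 11 standard members were above 0 and 22 below, where 49.9% of all genes were below. That split was 1 and 32 both in the authors' scaled value table and with arrays scaled by their medians, Psmd10 being the 1 above 0 in each. Genes of the same brightness had a median of -0.10 in the value table and -0.16 under median scaling, and 24 and 25 of the 33 standard members lay below it, against 22 in the values reported here. In KO the split was 13 above 0 and 20 below, where 52.2% of all genes were below, against 5 and 28 in the value table and 8 and 25 under median scaling.

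Among the 7 alpha ring subunits, which form the gated entrance, differences with diabetes in WT ran from -0.15 for Psma3 to 0.09 for Psma2, with a median of -0.04. Psma5 was the lowest in KO, with levels of 9.96 on DM-WT and 10.00 on ND-WT, and of 9.96 on DM-KO and 10.15 on ND-KO, so that ND-KO was high. Psma2 had 10.87 on DM-WT and 10.78 on ND-WT, and 10.91 on DM-KO and 11.01 on ND-KO. Psma7, an edge member, had 9.47 on DM-WT and 9.41 on ND-WT, and 9.55 on DM-KO and 9.47 on ND-KO, which are nearly level.

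The 6 standard beta ring subunits had a median of 0.02 in WT and 0.03 in KO. Psmb3, a structural subunit without a cutting site, was the highest standard member with diabetes in KO, with 10.01 on DM-WT and 10.05 on ND-WT, and 10.13 on DM-KO and 9.92 on ND-KO, where ND-KO was low. Psmb1 and Psmb4 differed by 0.08 and 0.02 in WT and by -0.04 and 0.08 in KO.

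The 5 ATPases of the base, which unfold substrates, had medians of -0.12 in WT and -0.01 in KO. Psmc3 was the only one of them above 0 in WT, with 9.66 on DM-WT and 9.54 on ND-WT, and 9.65 on DM-KO and 9.59 on ND-KO, and its WT difference turned to -0.12 under median scaling and -0.03 in the value table. Psmc4 was the lowest of the 5 in WT, at -0.18.

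Of the 9 other subunits of the regulatory particle, 7 were below 0 in WT, with a median of -0.13, against a median of -0.01 in KO. Psmd8 was the lowest, with 9.12 on DM-WT and 9.63 on ND-WT, and 9.59 on DM-KO and 9.51 on ND-KO. DM-WT alone was low. This probe lay in the dim column 48 of that array, and the part of that position in its difference of -0.51 was not tested. Psmd7, in column 47, had 8.73 on DM-WT and 8.96 on ND-WT, and 8.79 on DM-KO and 8.82 on ND-KO. Psmd14, the deubiquitinase that removes the ubiquitin chain, had 9.19 on DM-WT and 9.32 on ND-WT, and 9.48 on DM-KO and 9.35 on ND-KO, with DM-WT lowest and DM-KO highest. Psmd1, a large scaffold subunit, had 10.50 on DM-WT and 10.60 on ND-WT, and 10.69 on DM-KO and 10.51 on ND-KO. Psmd12 had 9.42 on DM-WT and 9.35 on ND-WT, and 9.31 on DM-KO and 9.32 on ND-KO. Psmd2, Psmd4, Psmd6 and Psmd13 lay between -0.20 and 0.10 in WT and between -0.04 and 0.00 in KO.

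Psme3, the nuclear activator that is not grouped with the interferon-induced cap, had levels of 7.76 on DM-WT and 7.85 on ND-WT, and of 7.83 on DM-KO and 7.75 on ND-KO. Its differences of -0.09 in WT and 0.08 in KO were near the spot-to-spot standard deviation.

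The 5 assembly chaperones, which put the core and the base together, held the standard member that was highest with diabetes in WT. Psmd10, also called gankyrin, had 8.53 on DM-WT and 8.23 on ND-WT, and 8.23 on DM-KO and 8.32 on ND-KO, so DM-WT alone was high. Limma gave Psmd10 a diabetes effect of 0.11 (SE 0.113, adjusted p = 0.748). Psmg2, which pairs with Psmg1 to build the alpha ring, had a lower level in each diabetic array, with 7.33 on DM-WT and 7.56 on ND-WT, and 7.41 on DM-KO and 7.55 on ND-KO. Its diabetes effect was -0.18 in limma (SE 0.0646, unadjusted p = 0.044, adjusted p = 0.374). Psmg1 had 8.11 on DM-WT and 8.13 on ND-WT, and 8.18 on DM-KO and 8.26 on ND-KO, and Psmd9 had 7.33 on DM-WT and 7.51 on ND-WT, and 7.30 on both DM-KO and ND-KO. Psmd5 differed by -0.11 in WT and -0.01 in KO.

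**Figure D2:**
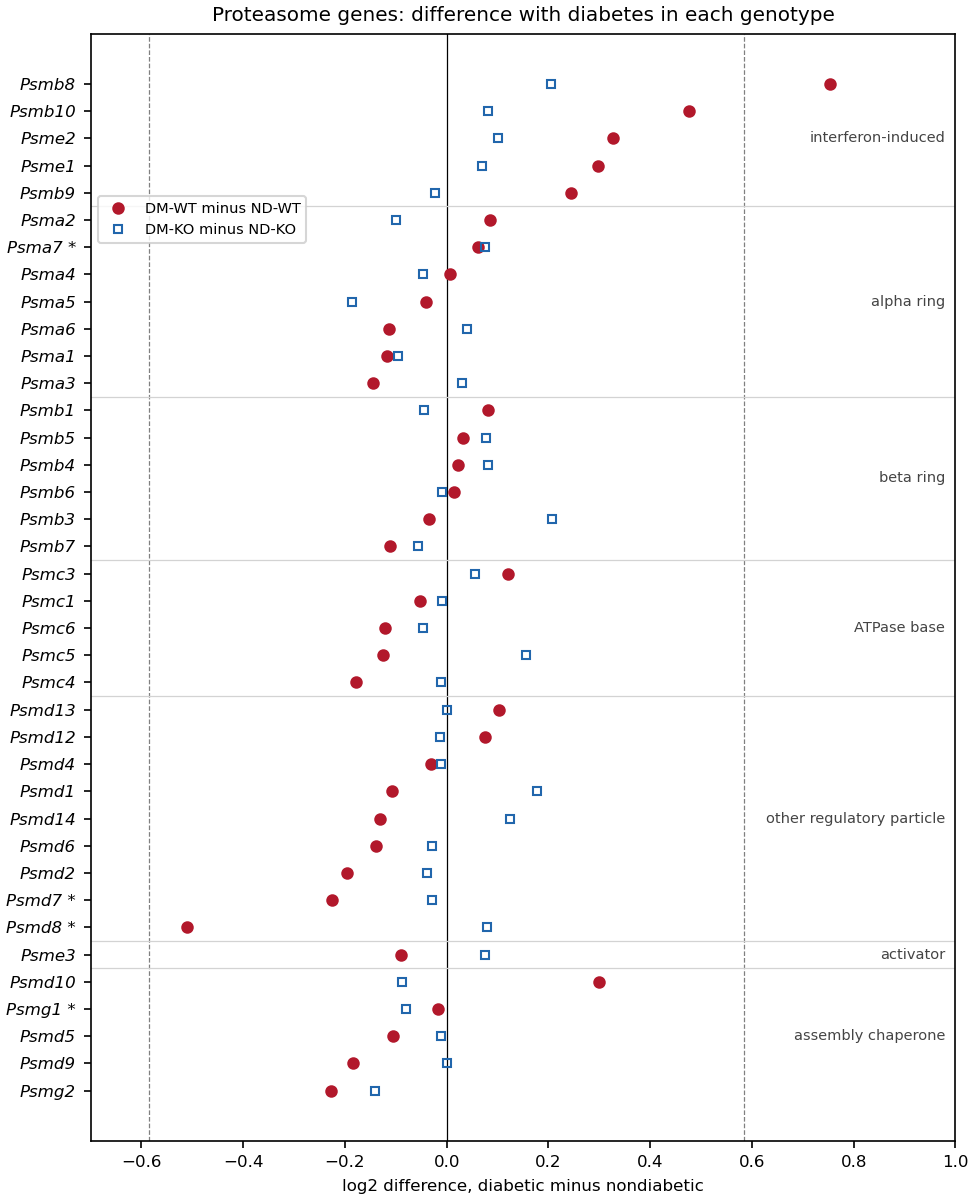
Log2 difference between diabetic and nondiabetic arrays for the 38 proteasome members, grouped by role; filled circles are WT, open squares KO, dashed lines mark 1.5-fold and asterisks the 4 edge members. The interferon-induced members lie to the right in WT, from 0.24 to 0.75, and the edge member Psmd8 lies farthest to the left at -0.51.

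Psmc3ip was usable on ND-WT, DM-KO and ND-KO and not on DM-WT. It was at least 1.14-fold lower on DM-WT than on ND-WT, taking the dim spot's own signal as the upper limit, and the level was 6.06 on DM-KO and 6.20 on ND-KO. Psme3ip1 was not above background on any array.

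In the limma fit over all genes, 0 of 39 members tested passed an adjusted p of 0.05 for diabetes, where 1 of 6506 genes did (0.0154%). At an unadjusted p under 0.05, Psmb8 was higher and Psmg2 lower, against 6.82% and 5.96% of all genes. In the value table neither passed it (limma adjusted p = 0.389 for Psmb8 and 0.385 for Psmg2), and with an offset of 16 Psmg2 did not. Under median scaling 5 members were lower at that level (Psma1, Psma5, Psmb7, Psmd6 and Psmg2), and with edge spots left out 3 were higher (Psmb8, Psmb10 and Psme2). Psmc3ip, which is no proteasome subunit and was not usable on DM-WT, is among the 39. It was lower at that level in the value table, with an offset of 16, with edge spots left out and under some other alternatives. For genotype 0 of 39 members passed, against 0.0461% of all genes, and 0 had an unadjusted p under 0.05, against 4.43% of all genes higher and 4.7% lower. The lowest adjusted p for genotype was that of Psmd14, at 0.612.

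Loss of ICAM-1 was compared next, first among diabetic mice. All 5 interferon-induced members were lower on DM-KO than on DM-WT, with a median of -0.21 against -0.01 for all genes, where 52.7% lay below 0, and Psmb10 turned to 0.03 under median scaling. Psmb8 stood at -0.34, Psmb9 at -0.28, Psme1 at -0.21, Psme2 at -0.14 and Psmb10 at -0.05. Under median scaling Psme1 stood at -0.0608 and Psme2 at -0.0063. Before normalization, background-subtracted intensity was higher on DM-KO than on DM-WT for Psme1 (602.6 against 568.5), Psme2 (324 against 291.4) and Psmb10 (137.4 against 116.5). It was lower for Psmb8 (178.4 against 193.9) and Psmb9 (47.7 against 55.6). The lower levels of Psme1, Psme2 and Psmb10 thus rest on the scaling. Of the standard members 26 were above 0 and 7 below, with a median of 0.06, against 22 and 11 in the value table and 32 and 1 under median scaling, and 46.9% of all genes were above 0. Psmd8 at 0.46 and Psmd14 at 0.29 were the highest and Psmd10 at -0.30 and Psmd12 at -0.11 the lowest, of which Psmd12 turned to 0.02 under median scaling. The spot of Psmd8 lay in the dim column 48 of DM-WT, and the part of that position in its value was not tested. No member differed by 1.5-fold, against 0.77% of all genes higher and 1.06% lower. This comparison shares the DM-WT array with the comparison of diabetes in WT, so the opposite signs in the 2 are not independent.

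Between nondiabetic mice, Psmb10 was highest of all members, at 0.35 between ND-KO and ND-WT, followed by Psma2 at 0.23 and Psmb8 at 0.21. Psme2 stood at 0.08, Psme1 at 0.02 and Psmb9 at -0.01, so 4 of 5 were above 0, as were 50.7% of all genes, and Psme1 turned to -0.0029 in the value table. Psmd9 was lowest at -0.21, followed by Psma6 and Psmd7, both at -0.14. Psma6, of the alpha ring, had 9.24 on DM-WT and 9.35 on ND-WT, and 9.25 on DM-KO and 9.21 on ND-KO. Of the standard members 18 of 33 were below 0, against 49.3% of all genes. The medians were 0.08 for the interferon-induced and -0.01 for the standard members, against 0.00 for all genes, and no member differed by 1.5-fold, against 0.176% of all genes higher and 0.448% lower. Differences with diabetes were smaller in KO than in WT for all 5 interferon-induced members, the difference in KO minus that in WT having a median of -0.27 against -0.01 over 5910 genes, of which 51.5% lay below 0. Of the standard members 23 of 33 lay above 0 in that quantity, with a median of 0.06, against 48.5% of all genes. With 1 array per group that quantity was not tested.

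**Figure D3:**
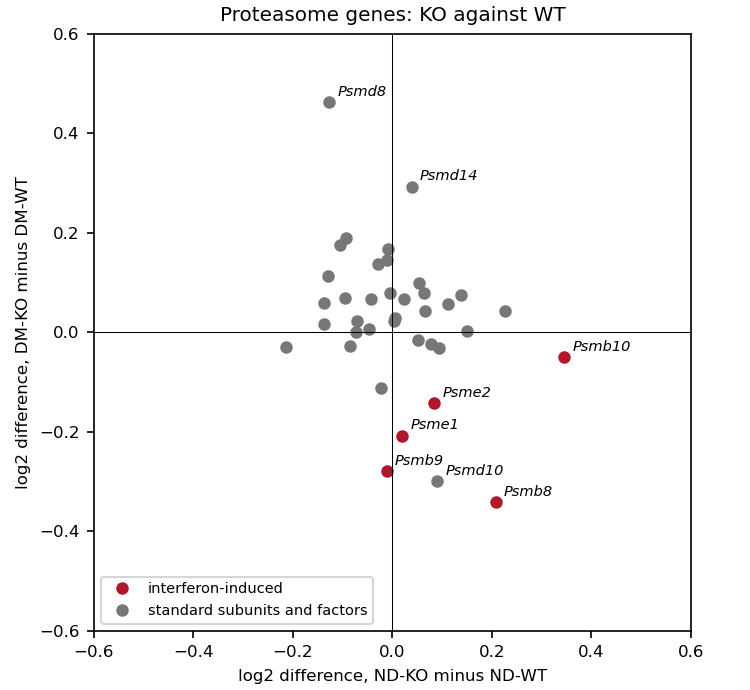
Log2 difference between KO and WT arrays for the 38 proteasome members, in nondiabetic mice on the horizontal axis and diabetic mice on the vertical axis; red points are interferon-induced members. The 5 red points lie below 0 on the vertical axis, from -0.34 to -0.05, and Psmd8, whose spot was in the dim column of DM-WT, lies at 0.46.

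Genes that work with the proteasome were followed through lists chosen with earlier results of these data known. Of 29 interferon-induced genes and regulators on the array, 21 were usable on both WT arrays, with a median of 0.70 and in 13 of them DM-WT exceeded ND-WT at least 1.5-fold, as in 1.74% of all genes. In KO the median was 0.15 and DM-KO exceeded ND-KO at least 1.5-fold in 2 of 21, as in 0.537% of all genes. Irf1, which drives immunoproteasome genes, stood at 6.98 on DM-WT and 6.63 on ND-WT, and at 6.78 on DM-KO and 6.83 on ND-KO. DM-WT held the highest of the 4 values of Irf1.

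Of 11 usable genes of class I antigen processing and presentation, 8 were above 0 in WT, against 50.1% of all genes, with a median of 0.19. In KO 5 of 11 were above 0, near the 47.8% of all genes, with a median of 0.00. B2m, the light chain of class I molecules, had 12.33 on DM-WT and 11.21 on ND-WT, and 11.37 on both DM-KO and ND-KO. Tap2, which pumps proteasome products into the endoplasmic reticulum, had 7.37 on DM-WT and 6.92 on ND-WT, and 7.10 on both DM-KO and ND-KO. DM-WT alone was high in both. Tap1, the neighbour of Psmb8 and Psmb9, was not above background on any array.

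Proteasome maturation and accessory factors had a median of -0.10 over 17 genes in WT and 0.04 over 16 in KO. Pomp, the maturation factor of new core particles, differed by 0.04 in WT and -0.13 in KO. Usp14, a deubiquitinase of the regulatory particle, stood at -1.09 in WT and at -0.01 in KO. Its probe lay in the edge columns 44 to 48 of the upper block, of which column 48 was dim on DM-WT. Nfe2l1, the factor that restores proteasome synthesis when activity falls short, differed by 0.12 in WT and 0.09 in KO. The 29 usable genes of ubiquitin and its conjugation had a median of 0.03 in WT, and Ube2l6, which conjugates the interferon-induced modifier Isg15, was the highest of them at 0.50. Ubd, an interferon-induced ubiquitin-like tag, was not usable on ND-WT and had 7.46 on DM-WT, with 6.98 on DM-KO and 6.25 on ND-KO. Targets of Nfe2l1 and Nfe2l2 outside the proteasome had a median of 0.18 over 12 genes in WT and 0.17 in KO, with 4 and 2 of them at least 1.5-fold higher with diabetes, against those same 1.74% and 0.537% of all genes. No gene of these 5 lists passed limma for diabetes over all genes, the lowest adjusted p being 0.115 among the Nfe2l1 and Nfe2l2 targets.

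Leukocytes express the immunoproteasome, so their markers are given beside these values. The summed normalized intensity of 17 macrophage and monocyte markers was 2617 on DM-WT and 1844 on ND-WT, and 2214 on DM-KO and 1935 on ND-KO. Of 13 usable ones 12 were above 0 in WT, against 50.1% of all genes, and 10 of 12 in KO, against 47.8%. The defining markers Adgre1 and Itgam were not above background on any array. For 21 lymphocyte markers the sum was 2671 on DM-WT and 2369 on ND-WT, and 2525 on DM-KO and 2374 on ND-KO, with Cd3e, Cd8a, Cd79b and Ms4a1 not above background anywhere. Of 8 lymphocyte markers usable in WT 7 were above 0, and 6 of 8 in KO, against those same shares, while Cd79a stood at -0.52 in WT. Both sums include dim markers, as 12 of the 17 and 7 of the 21 were usable on all arrays. They also hold the offset of 50 that background correction adds to every spot, dim ones included. Gzma was the brightest lymphocyte marker on every array, with 9.82 on DM-WT and 9.64 on ND-WT, and 9.73 on DM-KO and 9.54 on ND-KO. The arrays ranked in 1 order by both sums and by Psmb8, while Psmb9 was lowest on DM-KO. The order was not particular to leukocyte markers. It was the same for the sums of the interferon-induced genes and regulators and of ubiquitin and its conjugation. The latter sum was 19020 on DM-WT, 18650 on DM-KO, 18500 on ND-KO and 18210 on ND-WT. For lymphocytes that order rests on nearly equal sums for ND-KO and ND-WT. The part of leukocytes in the interferon-induced members' differences was not tested.

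By a fixed rule, the genes whose pattern over the 4 arrays lay nearest the mean of the interferon-induced members were sought among 2240 named genes whose range over the arrays was at least 0.5 of its own. That mean, centred over the arrays, was 0.23 on DM-WT and -0.19 on ND-WT, and 0.02 on DM-KO and -0.06 on ND-KO. The nearest was Fcgr3, an immunoglobulin receptor of macrophages and also on the macrophage list, at a root mean square distance of 0.010 log2 units, followed by Crip1, Car13, F2r, Arpc1b, Ctsl, Atf5, Emb, Tcirg1 and Ctsc, the last at 0.026. With 4 arrays, such nearness is a description.

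The choice of scaling bore on these medians. Between DM-WT and ND-WT the median of the interferon-induced members ranged from 0.22 under median scaling to 0.45 in the value table, and that of the standard members from -0.26 to -0.08.

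**Figure D4:**
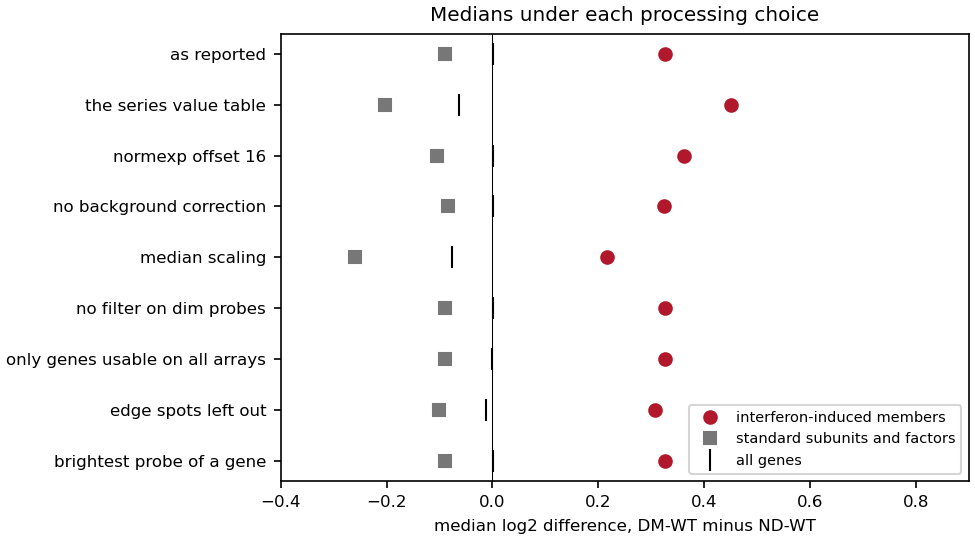
Median log2 difference between DM-WT and ND-WT under each processing choice, for the interferon-induced members (circles), the standard members (squares) and all genes (ticks). In each row the circle lies to the right of the tick and the square to its left.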

How the data were processed

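Renal cortex RNA of 4 groups was measured on 1 CodeLink bioarray each. Per the file headers, the deposited scanner tables hold, per spot, a mean intensity and a local background median as scanned, and a flag that marks it usable, empty or poor. The authors' value table, deposited with the series, holds scaled intensity. Its columns equalled spot mean minus background divided by 1 constant per array (38.1 for DM-WT, 43.9 for ND-WT, 46.9 for DM-KO, 45.0 for ND-KO) for 100% of compared probes within 0.1%, and had medians from 0.926 to 0.930. How the authors chose the constant is not given in the sources used here.

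From the scanner intensities, normexp background correction with an offset of 50 over all spots, log2 and quantile normalization over gene probes were run in limma 3.58.1 under R 4.3.3. Poor spots were set to missing. Of 10032 gene probes, 8943 were named by the platform table, 286 by RefSeq accession and 803 not at all; probes of a gene were averaged. The 4 comparisons used genes usable on both arrays. Additive limma fits used genes with 4 values, usable on at least 2 arrays, with Benjamini-Hochberg adjustment over all of them. On simulated data for diabetes over 6506 genes, the fit recovered 92 of 100 genes changed by 0.75 and 100 of 100 changed by 2 on the log2 scale. Recovery was not tested for genes whose log2 difference with diabetes was unlike in WT and KO, such as Psmb8 (0.75 in WT and 0.20 in KO). In the measured data the fit called 1 of 6506 genes for diabetes. The number of arrays limits the precision. Alternatives covered the value table, background, scaling, filters, edge spots, probe rule, an intensity trend and no covariate.

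Members and lists were chosen with earlier results of these data known. Values on every array were given for the interferon-induced members, Psmb5, Psmb6, Psmb7 and Psme3, members past 1.5-fold, the 2 highest and 2 lowest others of each comparison, members with an unadjusted p under 0.05, and members at the edge or unusable on an array.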

Additional observations from a re-analysis of the deposited data

Results flagged for a closer look

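For 15 of 38 members the difference with diabetes had opposite signs in WT and KO, or 39.5%, against 40.2% of all 5910 genes. In 6 of them, or 15.8%, both differences were larger than the median spot-to-spot standard deviation of their array pair, against 10.3% of all genes. That share includes many genes dimmer than the members and was not taken over genes of like brightness. Of 6049 genes usable on both WT arrays, 2885 were at least as bright as the dimmest standard member. With 1 array per group the difference between the genotypes was not tested, and the values below are the log2 difference with diabetes in KO minus that in WT. Psmd8 had 0.59 (0.08 in KO and -0.51 in WT), its spot lay in the dim column of DM-WT, and its KO value was -0.01 in the value table. Psmd10 had -0.39 (-0.09 in KO and 0.30 in WT), Psmd1 had 0.28 (0.18 in KO and -0.11 in WT) and Psmc5 had 0.28 (0.16 in KO and -0.12 in WT). Psmd14 had 0.25 (0.12 in KO and -0.13 in WT). Psma2 had -0.18 (-0.10 in KO and 0.09 in WT), and its WT value turned to -0.13 under median scaling and -0.03 in the value table.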

How the results depend on the processing

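Of the list medians and counts recomputed under each alternative, 143 stayed within the spot-to-spot spread or within 1.5 times their count, 13 moved further and 0 reversed. Part of the 143 was fixed in advance. The 2 choices of filter and the probe rule could not move the interferon-induced or standard medians. Each of those members had 1 probe, usable on all arrays. Single members were less steady, with 35 changes of sign in 1 comparison or another, over 21 members. Between DM-WT and ND-WT, 2 members were at least 1.5-fold higher in the value table and 2 with an offset of 16 (Psmb8 and Psmb10), and 1 was at least 1.5-fold lower in the value table and 1 under median scaling (Psmd8). The standard median there moved to -0.20 in the value table and -0.26 under median scaling, and the interferon-induced median to 0.45 and 0.22. Between DM-KO and ND-KO the standard median moved to -0.10 in the value table. Between DM-KO and DM-WT median scaling moved the standard median to 0.17 and the interferon-induced median to -0.0608. The interferon-induced members' median difference with diabetes in KO minus that in WT moved to -0.50 in the value table and -0.40 with an offset of 16. The cause was not tested. Limma called 0 members under every alternative, though it called 83 genes for diabetes under median scaling and 95 with edge spots left out, against 1 as reported and 0 or 1 under the others. For genotype it called 14 genes under median scaling and 12 with edge spots left out, against 3 as reported and 0 to 3 under the others. With edge spots left out the interferon-induced median in WT was 0.31. No paired analysis was possible because each group has 1 array and no replicate numbers pair them. Genotype enters the fit as a covariate, and fits without 1 of the arrays were not run.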
